A study of Mus musculus with 10 samples.

Results

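The genes described here are the phagocyte oxidase and nitric oxide genes of lung macrophages: *Cybb*, *Cyba*, *Ncf1*, *Ncf4* and *Rac2* of the NADPH oxidase, the nitric oxide synthase *Nos2*, the arginase *Arg2* and the superoxide dismutase *Sod2*. They were listed by name for their roles, and all 8 were found among the 24538 genes of the count files and among the 11571 genes tested. RNA was sequenced from 5 libraries of metastasis-associated macrophages (MAMs) and 5 libraries of resident alveolar macrophages (RAMs) of wild type C57BL6/J mice aged 8 to 10 weeks. MAMs were CD11B+CD11C- cells dissected from lung metastases, each library pooled from 2 to 4 mice that had received E0771-LG cells, a lung-tropic line of mouse mammary carcinoma, by tail vein injection at 6 to 8 weeks. RAMs were CD11C+CD11B- cells of normal lung without tumour. Both groups were first gated as CD45+, F4/80+, LY6C-, MRC1+ cells of high forward scatter, and both were digested with the transcription inhibitors alpha-amanitin and actinomycin D. Because the groups differed in tissue state and in the CD11B and CD11C gate at the same time, the effect of the tumour and the difference between macrophage types cannot be told apart in any comparison below. By the study's methods, a sample was either an individual mouse or pooled metastases.

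The phagocyte NADPH oxidase passes electrons from NADPH in the cytosol across a membrane to oxygen and so makes superoxide. Its catalytic core is the flavocytochrome formed by the products of *Cybb* and *Cyba*, which sits in the membrane; the products of *Ncf1* and *Ncf4* belong to a cytosolic complex that joins the core, with a Rac GTPase, when the phagocyte is activated. Macrophages are also known for inducible nitric oxide synthase, which makes nitric oxide from arginine, and for arginases, which split the same amino acid into ornithine and urea. Superoxide dismutases turn superoxide into hydrogen peroxide, and the enzyme encoded by *Sod2* does this in mitochondria. Transcripts, not oxidase assembly or products, were measured here.

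Upstream sequence was available from RefSeq on GRCm38.p6 for 4 of the 8 genes, *Cybb*, *Cyba*, *Ncf1* and *Sod2*. The windows of *Cybb* and *Ncf1* are shown because letter matches to an interferon-responsive form, given below, lie in them. Among the 8 genes, the transcripts of these 2 differed least between MAMs and RAMs. Each window holds the 250 bases before the RefSeq start, 5′ to 3′ along the gene, at chrX:9469325-9469574 for *Cybb* and chr5:134229626-134229875 for *Ncf1*, both on the minus strand. They were picked after their values were seen. The *Cybb* window lies inside the longer GENCODE gene but in none of its exons, and the *Ncf1* window ends where that gene begins. Capitals mark matches, on either strand, to GAAA and GAAA separated by any 2 bases, a form of the interferon-stimulated response element (ISRE), or to TTC and GAA separated by any 3 bases, a form of the STAT site.
Cybb: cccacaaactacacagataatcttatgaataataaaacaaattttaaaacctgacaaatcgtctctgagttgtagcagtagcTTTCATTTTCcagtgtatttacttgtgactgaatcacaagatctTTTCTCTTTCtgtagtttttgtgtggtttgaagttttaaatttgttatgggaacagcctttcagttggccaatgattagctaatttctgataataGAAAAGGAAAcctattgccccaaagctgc
Ncf1: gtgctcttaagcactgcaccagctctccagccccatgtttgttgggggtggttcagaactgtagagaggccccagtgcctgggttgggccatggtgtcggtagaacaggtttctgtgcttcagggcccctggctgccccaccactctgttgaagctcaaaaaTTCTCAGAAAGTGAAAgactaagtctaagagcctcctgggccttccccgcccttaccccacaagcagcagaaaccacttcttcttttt
The *Cybb* window held 3 matches to the ISRE form, with first bases at -168, -124 and -29 from the start. In *Ncf1*, a match to the STAT form from -88 to -80 overlapped a match to the ISRE form from -82 to -73. Among 32851 mouse windows of the same length, 2.98% held the ISRE form and 7.02% held the STAT form. The *Cyba* window held neither, nor GGG and TTTCC separated by any 2 bases (a form of the NF-kappa B site, in 1.41% of windows) nor GAGGAA (the core bound by PU.1, in 23.3% of windows). The *Sod2* window, not shown, overlaps an exon of its GENCODE gene. It held the STAT form with its first base at -185 and GAGGAA with its first base at -203. Both *Sod2* and *Cyba*, whose window held none of these forms, were higher in MAMs. These matches are letters in a window and say nothing of binding in these cells.

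Libraries held 55391447 to 87523247 reads assigned to genes in MAMs and 50746305 to 72150650 in RAMs. Among the 8 genes, *Nos2* in RAMs was the exception to high read numbers, with 2 to 30 reads a library. The sorted cells were checked by their markers. *Itgam*, which encodes CD11B, was at 6270 CPM (counts scaled to library size) in MAMs and 64.3 in RAMs, and *Itgax*, which encodes CD11C, was at 171 and 991. Alveolar macrophage markers summed to 903 to 1443 CPM in MAMs against 15182 to 18472 CPM in RAMs, with 12 of 13 measured markers lower in MAMs, and monocyte-derived macrophage markers summed to 14516 to 16703 and 482 to 653, with 11 of 11 higher. The first list includes *Itgax* and the second *Itgam*, so these sums and numbers are not independent of the sorting gate. Over all genes tested, 27.3% were lower and 28.9% higher in MAMs. In these lists *Krt79* averaged under 1 FPKM (fragments scaled to transcript length and sequencing depth) in MAMs, and *Cx3cr1* did so in RAMs. Each entered the test only through the other group and had to be higher there. Since neutrophils also carry the oxidase, their markers bear on these genes: 16 measured markers summed to 260 to 395 CPM in MAMs against 140 to 205 CPM in RAMs. Most of this sum came from *Csf3r* (146 and 68.4), *Mmp8* (42.0 and 58.5) and *Padi4* (93.8 and 0.851), and 8 of the 16 were under 1 CPM in both groups, among them *Elane* at 0 in all libraries, *Mpo* at 0.0988 and 0.00685 and *Ly6g* at 0.368 and 0. Of the 8 neutrophil markers tested, 6 were higher in MAMs, with *Mmp9* at 11.5 to 31.1 and 0.0207 to 0.582 CPM, *Prtn3* on average at 3.58 and 0.0254, *S100a8* at 4.12 and 1.89 and *S100a9* at 3.88 and 0.350 besides *Csf3r* and *Padi4*, and *Cxcr2* was lower, at 7.41 and 31.2. Beside these numbers stand the same 28.9% higher and 27.3% lower of all genes tested. *Padi4*, *Mmp9* and *Prtn3* averaged under 1 FPKM in RAMs, so they entered the test only through MAMs and had to be higher there. Eosinophil markers summed to at most 5.54 CPM, with *Prg2* and *Prg3* at 0. Epithelial and tumour markers summed to 16.6 to 24.6 CPM in MAMs against 606 to 726 CPM in RAMs, with *Krt19*, *Cdh1* and *Epcam* in front and *Cldn3* at 0. In the same list *Krt8* (1.48 and 0.0453) and *Krt18* (1.81 and 0.119, groups overlapping) averaged higher in MAMs. *Sftpc* (4.03 and 14.4) and *Scgb1a1* (0.752 and 10.4) were lower in MAMs, but in RAMs far below *Krt19* (436). Lymphocyte markers summed to 5.16 to 17.8 and 3.85 to 18.7. Endothelial markers summed to 28.1 to 114 CPM in MAMs against 127 to 214 CPM in RAMs, where *Vwf* made up most of the sum (19.3 and 151), while the other 3 markers tested, *Kdr* (29.0 and 0.948), *Pecam1* (16.6 and 2.28) and *Cdh5* (7.28 and 2.60), were higher in MAMs. These 3 averaged under 1 FPKM in RAMs, so they entered the test only through MAMs and had to be higher there. The part of these cells in the results below was not tested, and in bulk libraries a change in the share of cells that express a gene cannot be told apart from a change in RNA per cell.

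Of the 8 genes, 6 were higher in MAMs than in RAMs at an adjusted p under 0.05, none was lower, whether by edgeR, also at an unadjusted p under 0.05, or by DESeq2 or limma, and *Cybb* and *Ncf1* did not pass the test (edgeR's quasi-likelihood test, Benjamini-Hochberg adjustment over all genes tested). Over all genes tested, 56.2% passed by the same rule, 28.9% as higher and 27.3% as lower. With a fold change over 2 also required, *Nos2*, *Ncf4* and *Sod2* were higher, 3 of 8, against 15.3% of all genes tested. The MAM and RAM libraries did not overlap for 6 of the 8 genes, all higher in MAMs, against 44.9% of all genes tested in either direction and 23.7% with MAMs higher. The median log2 fold change was 0.85 over the 8 genes and -0.02 over all genes tested. *Nos2* entered the test only through its level in MAMs, as its mean in RAMs was below the limit of 1 FPKM (fragments scaled to transcript length and sequencing depth), and it therefore had to be higher in MAMs. The other 7 were above that limit in both groups.

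**Figure D1:**
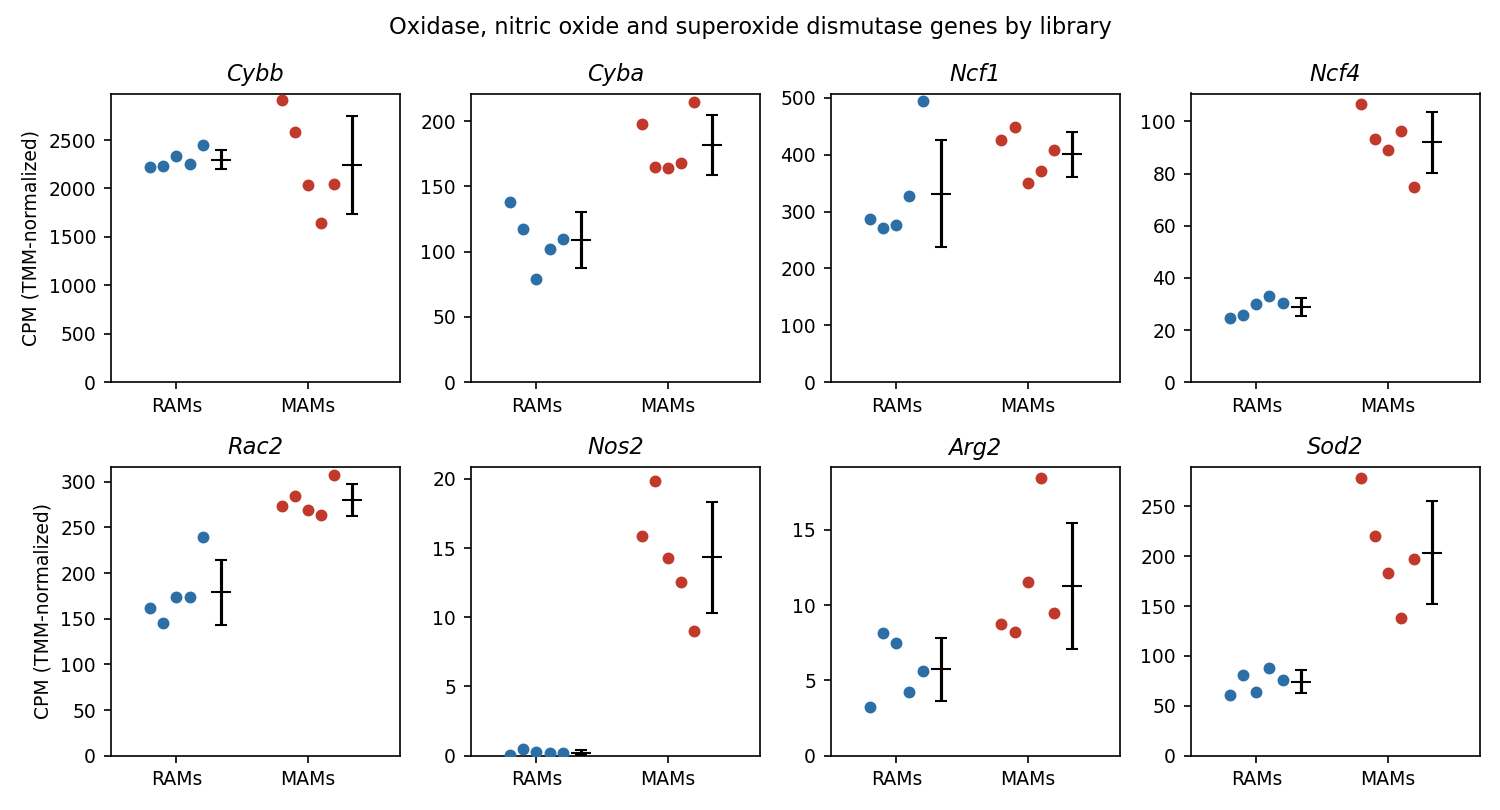
TMM-normalized CPM of each of the 8 genes (y axis, from 0, own scale in each panel) in 5 RAM and 5 MAM libraries, with points for libraries and bars for mean ± SD. MAM libraries lie above all RAM libraries for *Cyba*, *Ncf4*, *Rac2*, *Nos2*, *Sod2* and, by a narrow margin, *Arg2*, while they overlap for *Cybb* and *Ncf1*.

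Per transcript length, the oxidase core was among the most abundant products of both macrophages. *Cybb* was at 407 ± 90.9 FPKM in MAMs and 415 ± 18.3 in RAMs (SD, n = 5 each), above 98.6% and 99.0% of the genes tested. *Cyba* came next, at 349 ± 34.7 and 219 ± 37.9 FPKM, followed by *Ncf1* at 161 ± 15.7 and 135 ± 39.9 FPKM and *Rac2* at 94.2 ± 5.43 and 61.0 ± 12.5 FPKM. *Ncf4* was at 62.2 ± 8.51 FPKM in MAMs and 19.4 ± 1.45 in RAMs, and *Sod2* was close to it at 49.9 ± 12.2 and 17.8 ± 2.67 FPKM. The arginine enzymes were lowest, with *Arg2* at 6.54 ± 2.32 and 2.15 ± 0.917 FPKM and *Nos2* at 3.50 ± 0.993 and 0.0778 ± 0.0561 FPKM. The order of the 8 means was the same in both groups. Neighbours whose libraries overlapped were *Cybb* and *Cyba*, *Ncf4* and *Sod2*, and *Arg2* and *Nos2* in MAMs, and *Cyba* and *Ncf1*, and *Ncf4* and *Sod2*, in RAMs. *Nos2* stood 27.6-fold below *Arg2* in RAMs and 1.87-fold below it in MAMs.

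**Figure D2:**
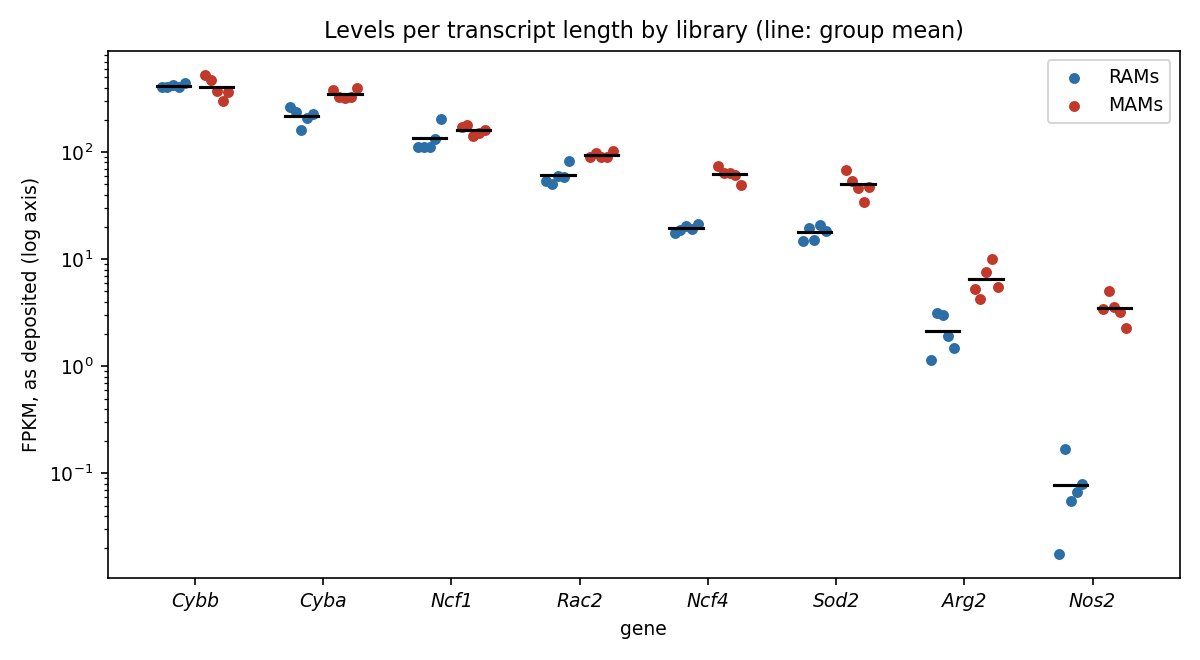
Deposited FPKM of the 8 genes on a log axis, with points for the 5 RAM and 5 MAM libraries and lines for group means. The 2 groups share 1 order from *Cybb* to *Nos2*, and the gap between *Arg2* and *Nos2* is wide in RAMs only.

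*Cybb* encodes the electron-transferring subunit of the oxidase (ENSMUSG00000015340.10, chrX:9435252-9487771 on GRCm38, minus strand). Its transcript level did not pass the test between groups but varied more among MAMs. The MAM libraries were at 2916, 2580, 2034, 1639 and 2041 CPM and the RAM libraries at 2223, 2234, 2334, 2247 and 2451 CPM. The RAM libraries therefore lay inside the range of the MAM libraries, with coefficients of variation of 4.18% in RAMs and 22.5% in MAMs. The log2 fold change of *Cybb* was -0.04 (95% interval -0.29 to 0.22; edgeR adjusted p = 0.821; exact two-sided permutation p = 0.706). Without MAM library 4, the lowest, it was 0.058 with an edgeR adjusted p of 0.644.

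*Cyba* encodes the partner subunit that stabilizes the catalytic subunit in the membrane (ENSMUSG00000006519.11, chr8:122424776-122432930, minus strand). It was higher in MAMs, at 198, 165, 164, 168 and 214 CPM against 138, 117, 79.0, 102 and 109 CPM in RAMs. The highest RAM library was below the lowest MAM library. For *Cyba* the log2 fold change was 0.74 (SE 0.131, 1.67-fold), with an edgeR adjusted p of 1.9e-04 and an exact permutation p of 0.00794, the smallest that 5 libraries against 5 allow. The 2 core subunits did not move together. Within a library, the FPKM of *Cyba* was 0.888 ± 0.191 of that of *Cybb* in MAMs and 0.530 ± 0.102 in RAMs, without overlap between the groups. This log2 ratio of counts was 0.82 higher in MAMs (exact permutation p = 0.00794, adjusted p = 0.0143 over 9 ratios). In the annotation *Cyba* overlaps Gm20388 on the other strand, and reads of the pair cannot be told apart where counting ignores strand, which the sources used here do not state.

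Of the cytosolic subunit genes of the set, *Ncf4* was higher in MAMs and *Ncf1* did not pass the test. *Ncf1*, which encodes the organizer subunit that is phosphorylated on activation (ENSMUSG00000015950.13, chr5:134220053-134229625, minus strand), was at 425, 448, 350, 371 and 409 CPM in MAMs and 287, 270, 276, 327 and 495 CPM in RAMs. Here 4 RAM libraries lay below every MAM library and RAM library 5 lay above them all. The log2 fold change of *Ncf1* was 0.27 (95% interval -0.04 to 0.59), with an edgeR adjusted p of 0.124 and an exact permutation p of 0.119. This call rested on RAM library 5, without which the log2 fold change was 0.46 and the edgeR adjusted p 5.5e-04. *Ncf1* overlaps *Gtf2ird2* on the other strand, which was at 3.19 to 14.4 CPM in MAM libraries and 18.7 to 28.5 CPM in RAM libraries.

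*Ncf4* encodes the subunit that binds phosphatidylinositol 3-phosphate on phagosomes (ENSMUSG00000071715.12, chr15:78244801-78262580, plus strand). It showed the largest change among the 5 oxidase genes. The MAM libraries were at 107, 93.3, 89.1, 96.2 and 74.8 CPM and the RAM libraries at 24.8, 25.9, 30.0, 33.1 and 30.3 CPM, and the lowest MAM library was over 2 times the highest RAM library. *Ncf4* had a log2 fold change of 1.68 (SE 0.120, 3.19-fold, 95% interval of the fold 2.67 to 3.82), with an edgeR adjusted p of 1.2e-08 and an exact permutation p of 0.00794. Relative to *Cybb* in the same library, *Ncf4* was at 0.157 ± 0.0292 by FPKM in MAMs and 0.0468 ± 0.00178 in RAMs, a difference of 1.74 in the log2 ratio of counts (exact permutation p = 0.00794, adjusted p = 0.0143).

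Set against *Cybb* in the same library, the log2 ratio of *Ncf1* was 0.37 higher in MAMs, which did not pass (exact permutation p = 0.0794, adjusted p = 0.102). This call too depended on 1 library: without RAM library 5 the difference was 0.50 (adjusted p = 0.0204, exact permutation test).

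*Rac2* encodes the Rac GTPase restricted to blood cells, a component of the active oxidase (ENSMUSG00000033220.7, chr15:78559167-78572783, minus strand). It was higher in MAMs, at 274, 285, 269, 264 and 308 CPM against 162, 146, 174, 174 and 240 CPM in RAMs. RAM library 5 was again the highest of its group, yet below every MAM library. *Rac2* had a log2 fold change of 0.64 (SE 0.113, 1.56-fold), with an edgeR adjusted p of 1.7e-04 and an exact permutation p of 0.00794. *Rac1*, the Rac found in most cells, was lower in MAMs, at 803 to 928 CPM against 1061 to 1188 (log2 fold change -0.36, edgeR adjusted p = 1.2e-04). By FPKM, *Rac2* was at 0.250 ± 0.0225 of *Rac1* in MAMs and 0.126 ± 0.0280 in RAMs, without overlap, and the log2 ratio of counts differed by 1.03 (exact permutation p = 0.00794, adjusted p = 0.0143). Relative to *Cybb*, *Rac2* was 0.73 higher on the log2 scale, with overlapping libraries (exact permutation p = 0.0159, adjusted p = 0.0238).

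*Nos2* encodes the inducible nitric oxide synthase (ENSMUSG00000020826.8, chr11:78920787-78960254, plus strand). It had the largest fold change of the 8 genes and, by FPKM, the lowest level in both groups. The MAM libraries held 780, 1060, 640, 694 and 628 reads of *Nos2* and the RAM libraries 2, 30, 13, 8 and 10 reads. In CPM this was 15.9, 19.9, 14.3, 12.6 and 9.02 in MAMs and 0.0342, 0.450, 0.269, 0.167 and 0.213 in RAMs, so that the groups were far apart while RAM library 1 stood below its own group. The log2 fold change of *Nos2* was 5.95 (SE 0.506, 61.9-fold, 95% interval of the fold 29.2 to 131), with an edgeR adjusted p of 8.7e-08 and an exact permutation p of 0.00794. On the log2(FPKM + 1) scale the change of *Nos2* was 2.04, since the added 1 is larger than its level in RAMs. Even in MAMs the level of *Nos2* was modest, above 27.3% of the genes tested.

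A low level shared across groups touches the *Nos2* value. Among 116 genes over 1000 CPM in MAMs, none was at less than 0.912% of that level in RAMs (*C1qb*), and the *Nos2* level in RAMs was 1.58% of that in MAMs. With 1% of the MAM level taken off the RAM libraries, and the reverse, a step added after the data were seen, the log2 fold change of *Nos2* was 6.83. Whether the few *Nos2* reads of RAMs came from RAMs was not tested.

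*Arg2* encodes the mitochondrial arginase (ENSMUSG00000021125.6, chr12:79130777-79156301, plus strand). Its level was low and scattered in both groups, at 8.74, 8.19, 11.5, 18.4 and 9.48 CPM in MAMs and 3.20, 8.14, 7.48, 4.26 and 5.65 CPM in RAMs. The groups missed each other by the gap between 8.19 CPM in MAM library 2 and 8.14 CPM in RAM library 2. The log2 fold change of *Arg2* was 0.97 (SE 0.319, 95% interval 0.29 to 1.65), with an edgeR adjusted p of 0.0172 and an exact permutation p of 0.00794. Without MAM library 4, the highest, the log2 fold change of *Arg2* was 0.72 and the edgeR adjusted p 0.0666. On the log2(FPKM + 0.1) scale the change was 1.60 by limma. *Arg2* overlaps *Vti1b* on the other strand, which was more abundant and also higher in MAMs, at 68.5 to 78.5 CPM against 34.8 to 49.2; the part of these reads in the *Arg2* count was not tested.

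The cytosolic arginase gene *Arg1*, outside the set, was at 1123 to 1661 CPM in the MAM libraries but 19.6 to 22.2 CPM in the RAM libraries (log2 fold change 6.03, edgeR adjusted p = 9.1e-15). The balance of the arginases therefore differed between the cells. *Arg2* was at 0.208 ± 0.0866 of *Arg1* by FPKM in RAMs and at 0.00687 ± 0.00170 in MAMs, and the log2 ratio of counts differed by -5.03 (exact permutation p = 0.00794, adjusted p = 0.0143). The ratio of *Nos2* to *Arg1*, which use the same amino acid, was low in both groups, at 0.00389 ± 0.00156 in MAMs and 0.00755 ± 0.00574 in RAMs by FPKM. The *Arg1* level in RAMs was 1.53% of that in MAMs, as near to the low level shared across groups as that of *Nos2*, and its part in both ratios was not tested. The log2 ratio of *Nos2* to *Arg1* counts differed by 0.21 with overlapping libraries (exact permutation p = 0.810, adjusted p = 0.810). The sign was not stable: with 0.1 FPKM added to each gene the difference was -2.14 (adjusted p = 0.0119, exact permutation test), and without RAM library 1 it was -0.31. The added 0.1 FPKM was larger than the mean of *Nos2* in RAMs, 0.0778 FPKM.

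**Figure D3:**
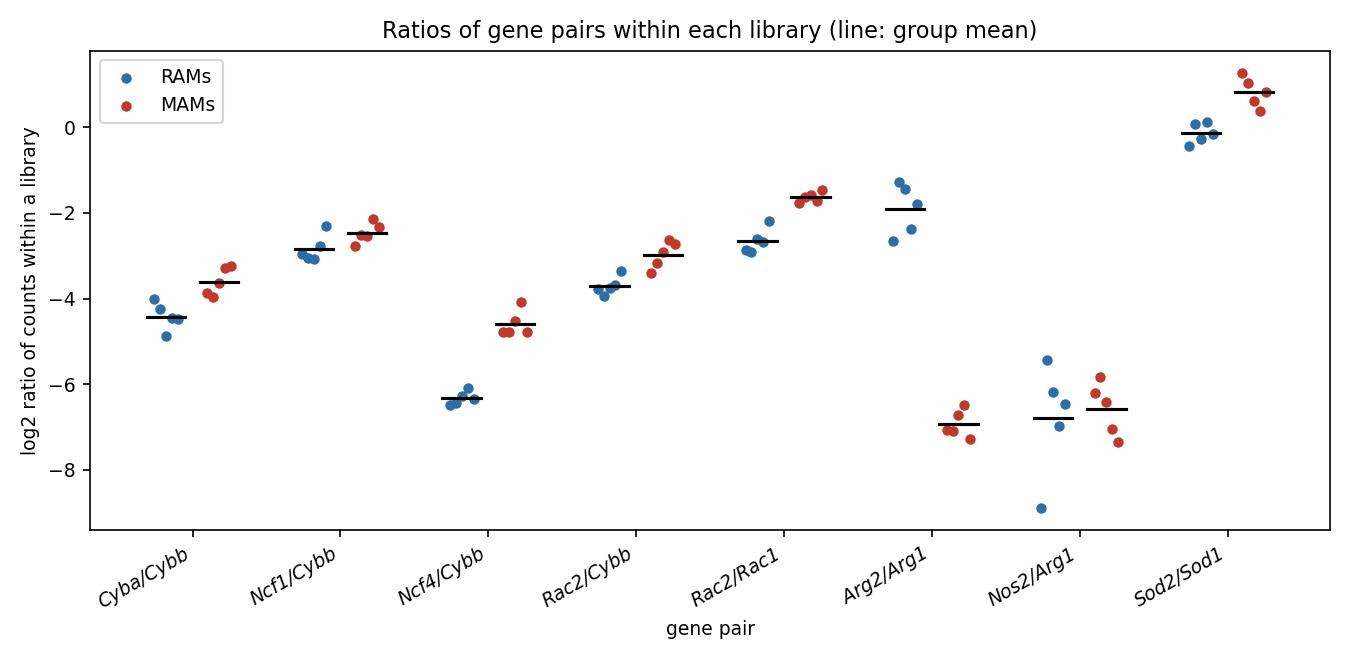
The log2 ratio of counts, with 0.5 added, of 8 gene pairs within each library, with points for 5 RAM and 5 MAM libraries and lines for group means. The groups separate for *Cyba*/*Cybb*, *Ncf4*/*Cybb*, *Rac2*/*Rac1*, *Arg2*/*Arg1* and *Sod2*/*Sod1*, and the spread is widest for *Nos2*/*Arg1* in RAMs.

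*Sod2* encodes the manganese superoxide dismutase of mitochondria (ENSMUSG00000006818.5, chr17:13006846-13040063, plus strand). It was higher in MAMs, at 279, 220, 183, 138 and 197 CPM against 61.3, 81.4, 63.4, 88.3 and 76.1 CPM in RAMs. Every MAM library was above every RAM library, and the MAM libraries spread more. For *Sod2* the log2 fold change was 1.46 (SE 0.161, 2.74-fold, 95% interval of the fold 2.16 to 3.48), with an edgeR adjusted p of 1.6e-06 and an exact permutation p of 0.00794. *Sod1*, which encodes the cytosolic copper and zinc enzyme, was at 106 to 119 CPM in MAMs against 76.4 to 85.2 CPM in RAMs (log2 fold change 0.47, edgeR adjusted p = 9.1e-05). The 2 dismutase genes changed by unequal amounts. The FPKM ratio of *Sod2* to *Sod1* was 0.391 ± 0.0903 in MAMs and 0.194 ± 0.0313 in RAMs, and the log2 ratio of counts differed by 0.96 (exact permutation p = 0.00794, adjusted p = 0.0143).

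Within groups, the 8 genes did not rise and fall as 1 block. After each gene was centred on its group mean, the highest Pearson correlations over the 10 libraries were 0.89 for *Ncf1* and *Rac2*, both highest among RAMs in library 5, and 0.81 for *Cybb* and *Sod2*, both highest in MAM library 1 and lowest in MAM library 4. The lowest was -0.54, for *Cyba* and *Nos2*. These are descriptions over libraries that share depth and scaling, and no p is given. By the same measure, the genes most like each of the 8 were picked from the 11571 genes tested. With 10 libraries, a search over so many genes also yields high values by chance. Those most like *Cybb* were *Axl* (0.98) and *Atp9b* (0.98), and those most like *Ncf4* were *Ythdf3* (0.92) and *Eif1ad* (0.91). Those most like *Nos2* were *Gnl3* (0.92) and *Ints8* (0.90). *Cyba* was most like *Arl5c* (0.96) and *Sdhc* (0.90), *Ncf1* most like *Sdc3* (0.95) and *Aldoa* (0.95), and *Rac2* most like *Tubb6* (0.94) and *Ckap4* (0.94). *Arg2* was most like *Picalm* (0.94) and 1810009A15Rik (0.91, itself at 0.0424 CPM in MAMs), and *Sod2* most like *Cyb5a* (0.95) and *Rpn1* (0.95).

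Other genes of these pathways were read from lists chosen by role, and their counts stand beside the same 28.9% higher and 27.3% lower of all genes tested. Among other oxidase genes, 13 were listed, 12 measured and 3 tested, of which 1 was higher and 2 lower in MAMs. *Hvcn1*, the voltage-gated proton channel that offsets the charge moved by the oxidase, was lower, at 27.1 against 224 CPM (log2 fold change -3.04, edgeR adjusted p = 6.3e-11). *Rap1a*, a small GTPase found with the flavocytochrome, was higher, at 287 against 170 CPM (log2 fold change 0.76, edgeR adjusted p = 3.2e-07), and *Rac1* was lower as given above. The 9 other members of this list, *Nox1*, *Nox3*, *Nox4*, *Noxa1*, *Noxo1*, *Duox1*, *Duox2*, *Duoxa1* and *Duoxa2*, were under 1 FPKM in both groups and were not tested.

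Of 15 signalling genes of oxidase assembly and of Rac, 10 were higher and 4 lower in MAMs, with a median log2 fold change of 0.29. With upper-quartile scaling, which moved the median of all genes by -0.16, 6 were higher. The largest changes were those of *Tiam1*, a Rac exchange factor, at 95.9 against 0.841 CPM, and of *Prkcb*, a protein kinase C that phosphorylates the *Ncf1* product, at 251 against 4.86 CPM, with log2 fold changes of 6.82 and 5.70 (edgeR adjusted p = 2.3e-13 and 5.0e-10). Both were under 1 FPKM in RAMs and so, like *Nos2*, entered the test only through MAMs and had to be higher there. *Vav3*, another Rac exchange factor, was at 148 against 21.4 CPM and *Prdx6*, a peroxiredoxin with phospholipase activity, at 152 against 36.8 CPM, with log2 fold changes of 2.79 and 2.05 (edgeR adjusted p = 8.9e-12 and 2.1e-10).

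Of 21 other nitric oxide and arginine genes, 15 were tested, and 5 were higher and 5 lower in MAMs. Next to *Arg1*, the largest changes were those of *Slc7a2*, *Ddah2* and *Gch1*. *Slc7a2*, an arginine transporter, was lower at 178 against 1339 CPM (log2 fold change -2.91, edgeR adjusted p = 5.0e-07), and *Gch1*, the first enzyme of synthesis of the nitric oxide synthase cofactor tetrahydrobiopterin, was higher at 83.6 against 19.3 CPM (log2 fold change 2.12, edgeR adjusted p = 3.1e-10). *Ddah2*, which encodes a member of the dimethylarginine dimethylaminohydrolase family, was low at 3.48 against 0.727 CPM (log2 fold change 2.24, edgeR adjusted p = 0.032), a call lost without any of MAM libraries 4 and 5 and RAM libraries 1, 4 and 5, with adjusted p from 0.0541 to 0.0677 by edgeR. *Ddah2* also entered the test only through MAMs, and had 1 to 168 reads in RAM libraries. The other synthase genes *Nos1* and *Nos3* were under 1 FPKM in both groups and were not tested.

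Of 12 other genes of superoxide and peroxide removal, 6 were higher and 2 lower in MAMs. *Sod3*, the extracellular dismutase, was higher at 12.7 against 0.194 CPM (log2 fold change 5.99, edgeR adjusted p = 7.7e-07), but it had 1 to 28 reads in RAM libraries and entered the test only through MAMs. The next were the peroxiredoxin genes *Prdx5* and *Prdx1* and the glutathione peroxidase gene *Gpx1*, with log2 fold changes of 1.49, 1.43 and 1.03. Of 14 transcription factors known for control of *Cybb*, *Nos2* or *Sod2*, 13 were tested, and 7 were higher and 1 lower in MAMs. The largest changes were those of *Cebpe*, *Hif1a*, *Irf1* and *Runx1*, with log2 fold changes of 5.91, 2.68, 2.36 and -1.85. *Cebpe* had 1 to 10 reads in RAM libraries and entered the test only through MAMs. *Irf1*, which acts in the interferon response, was at 133 against 25.9 CPM, and *Cybb* was at 2242 ± 504 against 2298 ± 96.0 CPM. The *Cybb* window, picked after these values were seen, held 3 letter matches to the ISRE form. Whether these matches respond to interferon or to *Irf1* in these cells was not tested.

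**Figure D4:**
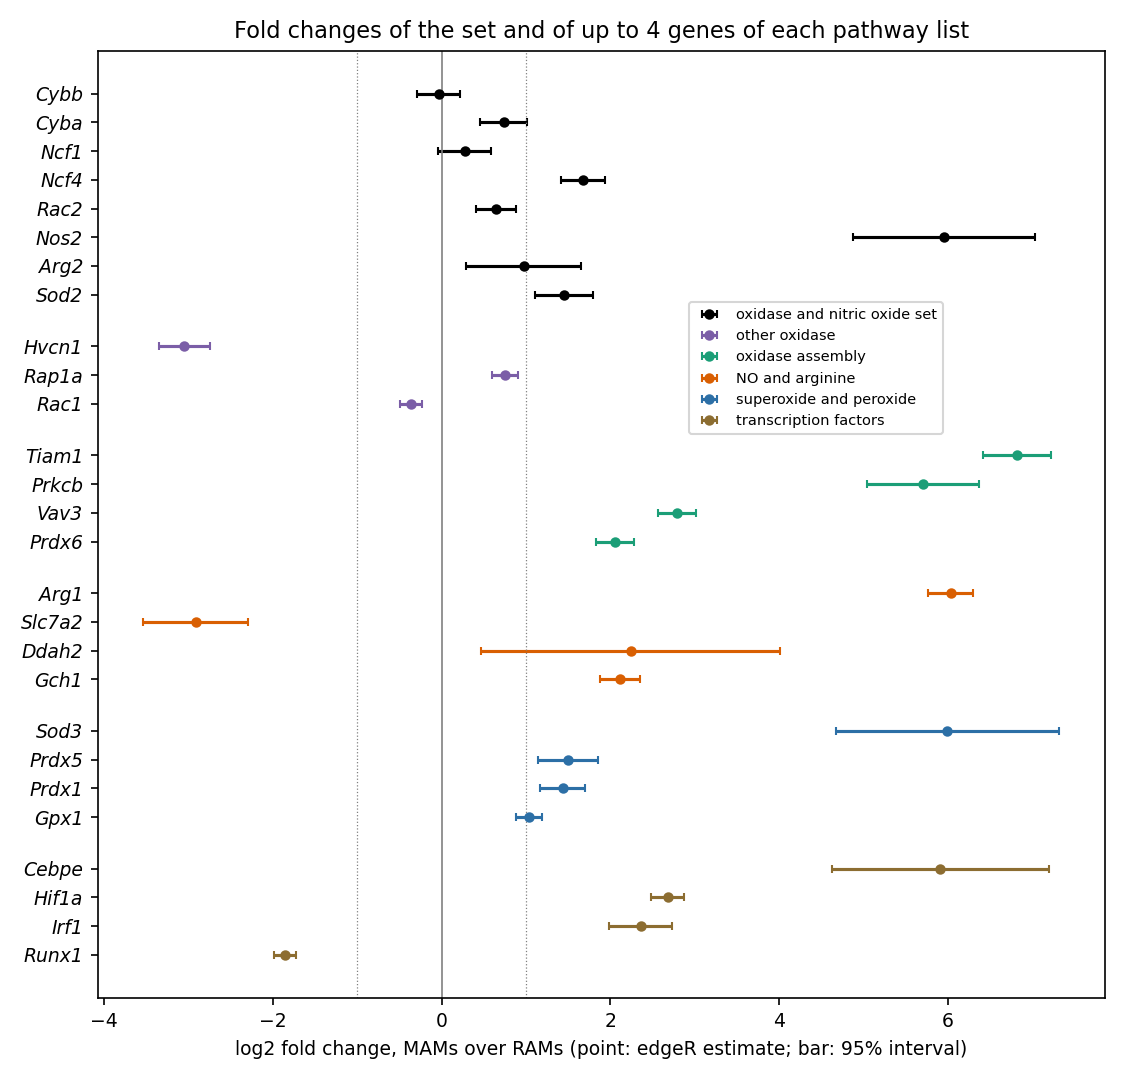
Log2 fold change of MAMs over RAMs (x axis; points: edgeR estimates; bars: 95% intervals; dotted lines: fold changes of 2) for the 8 genes and for up to 4 tested genes with the largest change in each of 5 pathway lists. The 8 genes run from *Cybb* at -0.04 to *Nos2* at 5.95, and the other oxidase genes hold the lowest value, *Hvcn1* at -3.04.

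Under 19 other ways of processing, which changed the test, scaling, filter, unit or libraries, *Cyba*, *Ncf4*, *Nos2*, *Rac2* and *Sod2* passed in all 19 and *Cybb* in none. *Arg2* passed in 18 and *Ncf1* in 1, each turning on the library named above. The log2 fold change lay between 1.51 and 1.74 for *Ncf4*, 1.29 and 1.57 for *Sod2*, 0.57 and 0.83 for *Cyba*, 0.48 and 0.77 for *Rac2*, and 0.72 and 1.60 for *Arg2*. It lay between 0.11 and 0.46 for *Ncf1*, -0.20 and 0.058 for *Cybb*, and 2.04 and 6.83 for *Nos2*.

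**Figure D5:**
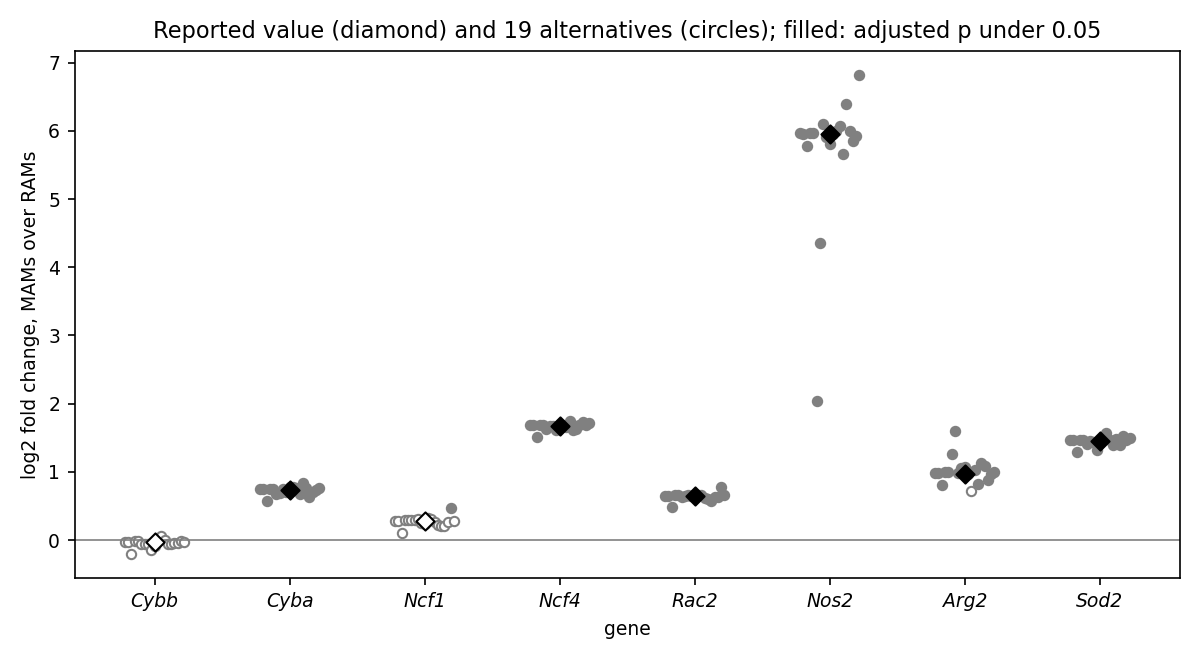
Log2 fold change of MAMs over RAMs of each gene as reported (diamond) and under 19 alternatives (circles), filled where the adjusted p is under 0.05. *Cybb* and *Ncf1* are the genes with open diamonds, and the 2 lowest points of *Nos2* are those on the log2 FPKM scales.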

How the data were processed

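RNA of sorted cells was amplified with the Ovation RNA-Seq V2 kit and sequenced as paired 100 bp reads. Per the labels and the study's methods, the authors aligned reads to mm10 with TopHat2 2.0.13, counted reads per RefGene gene with HTSeq 0.6.1, and deposited raw counts and, from Cufflinks 2.2.1, FPKM values, with counts in 1 file per library and FPKM in 1 table of all libraries. Lines that name no gene held 54.6% to 58.3% of counts in MAMs and 62.2% to 64.1% in RAMs and were left out of library sizes. Strand setting and RNA quality were not given in the sources used here. Gene positions are from GENCODE on GRCm38 and upstream windows from RefSeq.

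Counts were tested with edgeR 4.0.16 (R 4.3.3; glmQLFit and glmQLFTest, TMM factors 0.897 to 0.943 in MAMs and 1.07 to 1.10 in RAMs) over the 11571 genes whose FPKM averaged 1 or more in either group, all 10 libraries and no covariate. Genes passed at a Benjamini-Hochberg adjusted p under 0.05. A fold change over 2 was required in addition where stated. CPM are TMM-normalized, and log2 CPM used a prior count of 2. Single genes and 9 within-library ratios (0.5 added to counts) were tested by exact two-sided permutation over the 252 splits of 5 against 5. Results that need certain genes of the lists, 1 of the 9 ratios among them, are not reported here. Values are mean ± SD, n = 5. On simulated counts for this comparison over 11571 genes, 200 of them changed, edgeR recovered 69% of 2-fold and 91% of 4-fold changes, with 14 false calls. In the data 56.2% of genes passed, so the simulated setting differed from the real comparison. Replicate libraries were distinct (lowest chi-square per degree of freedom 41.0). Alternatives used DESeq2 1.42.0 and limma 3.58.1, other scalings and filters, a replicate block, and each library left out.

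The 8 genes, the lists and the tests were chosen with earlier results of these data known. Genes named are the 8, those of the ratios, up to 4 tested genes with the largest change in each pathway list, the 3 most abundant of each marker list, the sorting markers, and the 2 genes most like each of the 8. *Krt79*, *Cx3cr1*, *Elane*, *Mpo*, *Ly6g*, *Mmp9*, *Prtn3*, *S100a8*, *S100a9*, *Cxcr2*, *Cdh5*, *Prg2*, *Prg3*, *Cldn3*, *Krt18*, *Sftpc*, *Scgb1a1*, *C1qb*, overlapping genes and genes not tested were named outside this rule.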

Additional observations from a re-analysis of the deposited data

Results flagged for a closer look

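*Ncf1* in RAMs was the single value flagged, because 1 library lay far from the others of its group by Dixon's criterion at the 95% level. RAM library 5 was at 495 CPM, and the next highest RAM library was at 327 CPM. Of the 32 values tested in this way, chance flags about 1 in 20. *Rac2* was also highest in RAM library 5 among RAMs, at 240 CPM, without being flagged.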

How the results depend on the processing

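Replicate numbers did not pair the libraries: correlations of same-numbered MAM and RAM libraries ran from -0.04 to 0.03, and only numbers 3 and 5 correlated best with their own. With the replicate number as a block, 3205 genes were higher and 3100 lower (3344 and 3160 without it), 6 of the 8 genes were higher as before, and 8 genes of oxidase assembly were higher in place of 10. Upper-quartile scaling gave 6 higher genes of oxidase assembly, 1 lower by over 2-fold in place of 0, and 2 lower transcription factors in place of 1. limma gave 2 lower transcription factors on both FPKM scales and 1 assembly gene lower by over 2-fold on the log2(FPKM + 0.1) scale. Among other oxidase genes, 4 were lower without a filter on low values in place of 2, and those lower by over 2-fold numbered 3 without a filter and 2 with the filterByExpr filter in place of 1, as more genes were tested. The difference of MAMs from RAMs in the log2 ratio of *Nos2* to *Arg1* reversed to -2.14 with 0.1 FPKM added to each gene. This amount was more than the mean of *Nos2* in RAMs (0.0778 FPKM). The part of the added amount in this reversal was not tested. With 1 library left out at a time, the same difference for *Nos2* to *Arg1* ran from -0.31 to 0.55. That in the log2 ratio of *Ncf1* to *Cybb* ran from 0.29 to 0.50. Lower genes of peroxide removal then numbered 1 to 2, other oxidase genes lower by over 2-fold 1 to 2, and assembly genes lower by over 2-fold 0 to 1. *Cybb* ran from -0.15 without MAM library 1 to 0.058, reversed, without MAM library 4. *Adgre1*, the F4/80 gene, was 0.37 higher in MAMs on the log2 scale and 0.21, not passing (edgeR adjusted p = 0.093), with upper-quartile scaling. Counting error limits *Nos2* in RAMs, with 2 to 30 reads a library, and *Cebpe*, *Sod3* and *Ddah2*, each with 1 read in at least 1 RAM library. Of 1548 values recomputed, 918 of single genes kept their direction and their side of the threshold. Another 599, which answer a comparison, were also classed as the same. Many of these are numbers of genes, which have no direction and could change within this class. With 1 library left out at a time, higher genes of oxidase assembly numbered 7 to 10, and higher genes among the 8 numbered 5 to 7.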

Other observations

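*Ass1*, which encodes argininosuccinate synthase and supplies arginine again for nitric oxide synthesis, held 1 read over all 10 count files while its deposited FPKM in MAMs averaged 4.62. It is among the 15 tested genes of its list and did not pass (edgeR adjusted p = 0.53), a value that rests on that 1 read.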
